A study of Mus musculus with 11 samples.

Results

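The Schlafen genes described here are Slfn2, Slfn4, Slfn5 and Slfn8, the 4 of the 638 genes in the authors' deposited progression signature whose symbol starts with Slfn. They were measured on Affymetrix mouse expression arrays in sorted granulocyte-macrophage progenitors (GMPs, marrow cells already committed to the neutrophil and monocyte lineages) from a mouse model in which loss of Irf8 gives a disease like chronic myeloid leukaemia and activation of beta-catenin carries it into blast crisis. There were 4 arrays labelled Irf8 KO / b-cat(Ex3), 3 of Irf8 KO (spelled lrf8 KO in its labels) and 4 labelled control. Per the series text the Irf8 KO / b-cat(Ex3) mice lacked Irf8 and carried 1 activated Ctnnb1 allele, from which exon 3 had been deleted, the Irf8 KO mice lacked Irf8 and carried the same allele unrecombined, and the control mice carried that floxed allele with Irf8 intact. Every mouse was injected with 400 µg poly(I:C), which mimics viral RNA and so triggers interferon, on days 0, 3 and 5, and marrow was harvested 10 to 14 days after the last injection. Cre was driven by the Mx promoter, which interferon switches on in many cell types and not in GMPs alone, and each array came from a pool of mice, so the spread between arrays is a spread between pools. The series text also names Irf8-intact mice with the exon 3 deletion, which were not analysed here. Ages and the design of the Irf8 deletion were not given in the sources used here.

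Schlafen proteins are a family of mammals, and in the mouse most of their genes lie side by side in a single cluster. Many are induced by type I interferon, through its receptor and the JAK-STAT pathway, and several members act on RNA or restrain proliferation. Slfn2 keeps T cells and monocytes quiescent in the mouse, Slfn4 falls as mouse macrophages mature and disturbs myelopoiesis when it is forced on, and Slfn5 and Slfn8 are long members with a helicase-like part, of which Slfn8 has been studied in mouse T cells and Slfn5 mostly as an interferon-response gene of human cells. Irf8 is a transcription factor of the interferon regulatory family that directs monocyte fate.

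In the RefSeq annotation of GRCm38.p6 the cluster on chromosome 11 runs Slfn5, Slfn9, Slfn8, Slfn2, Slfn1, Slfn4, Slfn3 and Slfn14, with Slfn10-ps, not annotated as protein-coding, between Slfn8 and Slfn2. Of these 8 protein-coding neighbours, 4 were in the signature and 4 (Slfn9, Slfn1, Slfn3 and Slfn14) were not. The listed genes are thus interleaved with unlisted relatives. Of the 20 protein-coding genes next to the cluster, 10 on each side, 0 were in the signature. The share of all protein-coding genes that are listed was not computed, and the 4 in the cluster are the members by choice. Nothing is therefore read from setting these counts side by side. A gene can be missing from the signature because it changed too little, because its spread was too wide or because it was not measured, and the table does not say which.

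The promoter windows of the 4 genes, and of Slfn9 as the unlisted neighbour whose window is most like one of theirs, are shown because the members are known interferon targets. Each window holds 250 bases before and 50 after an annotated start and is given on the gene's own strand. The coordinates and sequences are those of RefSeq, build GRCm38.p6, and capitals mark matches to any of the motifs named after the sequences.
Slfn2, chr11:83064862-83065161, plus strand: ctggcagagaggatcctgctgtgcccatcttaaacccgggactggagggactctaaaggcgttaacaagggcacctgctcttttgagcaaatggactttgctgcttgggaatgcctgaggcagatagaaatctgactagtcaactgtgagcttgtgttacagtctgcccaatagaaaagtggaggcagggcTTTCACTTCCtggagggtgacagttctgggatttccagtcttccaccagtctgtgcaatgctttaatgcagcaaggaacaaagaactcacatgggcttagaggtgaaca
Slfn4, chr11:83174936-83175235, plus strand: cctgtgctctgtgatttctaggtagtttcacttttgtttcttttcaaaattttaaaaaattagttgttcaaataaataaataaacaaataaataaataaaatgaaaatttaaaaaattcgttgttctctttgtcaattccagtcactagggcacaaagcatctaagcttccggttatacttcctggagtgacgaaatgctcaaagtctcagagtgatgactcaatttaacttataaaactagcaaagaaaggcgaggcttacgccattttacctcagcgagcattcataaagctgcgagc
Slfn5, chr11:82951852-82952151, plus strand: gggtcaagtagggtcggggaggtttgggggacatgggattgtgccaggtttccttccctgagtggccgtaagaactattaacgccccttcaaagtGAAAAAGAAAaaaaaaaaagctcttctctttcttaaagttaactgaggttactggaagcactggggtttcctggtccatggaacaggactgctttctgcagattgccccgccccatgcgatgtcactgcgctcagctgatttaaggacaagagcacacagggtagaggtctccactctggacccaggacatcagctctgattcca
Slfn8, chr11:83020761-83021060, minus strand: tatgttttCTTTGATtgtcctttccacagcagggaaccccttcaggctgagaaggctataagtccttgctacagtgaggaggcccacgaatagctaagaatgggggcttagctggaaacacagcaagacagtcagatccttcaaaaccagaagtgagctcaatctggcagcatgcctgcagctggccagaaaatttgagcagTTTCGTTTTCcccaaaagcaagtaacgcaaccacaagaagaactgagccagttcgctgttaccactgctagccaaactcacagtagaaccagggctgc
Slfn9, chr11:82991781-82992080, minus strand: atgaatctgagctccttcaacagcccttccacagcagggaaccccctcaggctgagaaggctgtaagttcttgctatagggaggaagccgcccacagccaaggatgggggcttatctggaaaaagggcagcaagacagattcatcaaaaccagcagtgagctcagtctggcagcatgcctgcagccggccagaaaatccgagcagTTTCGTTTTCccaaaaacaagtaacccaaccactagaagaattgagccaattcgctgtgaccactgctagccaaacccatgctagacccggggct

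4 motifs were searched on both strands. They were the interferon-stimulated response core, which interferon regulatory factors bind (GAAA, any 2 bases, GAAA), the ETS-IRF composite core, which Irf8 binds with an ETS factor (GGAA, any 2 bases, GAAA), TTCNNNGAA, the core bound by STAT dimers, and CTTTGAT, a core of the TCF/LEF factors that partner beta-catenin. The first 2 can overlap each other. The response core was found in the Slfn5 window, starting 155 bases before the gene's start, and in the Slfn8 window, 48 bases before it, and 3.44% of all 32851 windows of that length held it. The composite core was found in the Slfn2 window, 59 bases before the start, against 2.72% of all windows. CTTTGAT stood 242 bases before the Slfn8 start (3.73% of all windows), and none of the 10 Schlafen windows of the cluster held TTCNNNGAA (8.30% of all windows). Slfn8 has another annotated start, whose window (chr11:83020673-83020972) is not shown. That window held the response core 136 bases before its start and no CTTTGAT, so the CTTTGAT match depends on the start chosen. The Slfn4 window held 0 matches to these 4 motifs, which says only that these letters are not in it. Slfn9 carried the same response core match as Slfn8, 45 bases before its start, and the Slfn8 and Slfn9 windows had 82.7% of 300 bases identical in a global alignment, against 50.0% to 59.7% for the other 27 pairs of the cluster's protein-coding genes (1 window a gene). Slfn9 is not in the signature, but whether it was measured is not known, so nothing is read from this shared match. A match of letters is not a bound site, and no binding was measured.

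The members were chosen by the values in the authors' deposited table, which are therefore described and not tested. The authors' deposited table gives Slfn4 (Entrez 20558, ENSMUSG00000000204) the log2 fold change 2.66, or 6.31-fold, with p = 3.22e-05, rank 6 of the 394 positive genes. Slfn5 (Entrez 327978, ENSMUSG00000054404) has rank 13 in the authors' deposited table with 2.02, or 4.04-fold (p = 0.00125). Slfn2 (Entrez 20556, ENSMUSG00000072620) has rank 22 with 1.77, or 3.40-fold, per the authors' deposited table (p = 0.000616). Slfn8 (Entrez 276950, ENSMUSG00000035208) has rank 69 with 1.38, or 2.60-fold, per the authors' deposited table (p = 0.000987). All 4 are well above 0.586, the smallest absolute change that the authors' deposited table lists, while the p-value of Slfn5 lies closest to the table's largest, 0.0016. No Schlafen gene is known to lie just outside these limits, because the unlisted ones have no value in the table.

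The 2 groups behind that fold change were not stated, and they were found by setting it beside the values per array. The linear fold of each of the 638 rows equalled, to a relative difference under 1e-07, the fold between the group means of Irf8 KO / b-cat(Ex3) and control GMPs for exactly 1 of the 45037 probe sets. In Irf8 KO / b-cat(Ex3) against Irf8 KO 0 rows had such a probe set, and in Irf8 KO against control 1 row had. Positive values in the authors' deposited table therefore mean higher in Irf8 KO / b-cat(Ex3) than in control GMPs. The same equality ties every listed gene to a probe set, for which no gene annotation was used here. Slfn4 is 1427102_PM_at, Slfn5 is 1458458_PM_at, Slfn2 is 1450165_PM_at and Slfn8 is 1451655_PM_at. Other probe sets of these genes, and those of Slfn1, Slfn3, Slfn9 and Slfn14, could not be named, and whether probes of such similar genes bind each other's RNA was not tested.

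The size of that change was not the only criterion. 12 probe sets differed more between Irf8 KO / b-cat(Ex3) and control GMPs than any listed row. All 12 also differed by over 2-fold between Irf8 KO and control GMPs, as did 85 of the 638 listed rows, and whether the change in Irf8 KO entered the choice is not known. All 3 comparisons may thus have entered the choice of the members, and none of their differences is tested here.

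Over the 3 groups the genes did not share one pattern. For Slfn2 and Slfn5 the difference between Irf8 KO / b-cat(Ex3) and Irf8 KO was larger in size than that between Irf8 KO and control, and for Slfn4 and Slfn8 it was smaller, though for Slfn8 the order turned (0.70 and 0.68) without Irf8 KO replicate 1. All 4 had a higher mean in Irf8 KO than in control GMPs, but only for Slfn4 did these groups not overlap. All levels are log2 expression as deposited, and levels of different probe sets are not compared.

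Slfn4, the gene that falls as macrophages mature, had a level of 6.69, 6.12, 7.38 and 7.43 in the Irf8 KO / b-cat(Ex3) arrays, 6.69, 6.56 and 5.65 in the Irf8 KO arrays, and 3.39, 4.49, 4.05 and 5.07 in the control arrays. Every array without Irf8 lay above every control array, and the 2 groups without Irf8 overlapped. The group means were 6.91 ± 0.62 in Irf8 KO / b-cat(Ex3) (SD, n = 4), 6.30 ± 0.57 in Irf8 KO (SD, n = 3) and 4.25 ± 0.71 in control GMPs (SD, n = 4). The difference was 2.66 ± 0.38 for Irf8 KO / b-cat(Ex3) minus control and 2.05 ± 0.41 for Irf8 KO minus control (log2, standard error from limma). Irf8 KO / b-cat(Ex3) minus Irf8 KO came to 0.60 ± 0.41, and to 0.28 without Irf8 KO replicate 3. On the log2 scale, 77.3% of the difference from control was thus present in Irf8 KO GMPs.

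Slfn2, the quiescence gene, had a level of 7.44, 7.29, 7.86 and 8.56 in the Irf8 KO / b-cat(Ex3) arrays, 6.54, 6.39 and 5.81 in the Irf8 KO arrays, and 5.23, 6.18, 6.0 and 6.69 in the control arrays. Here the 4 Irf8 KO / b-cat(Ex3) arrays lay above all others, and Irf8 KO overlapped with control. Its means were 7.79 ± 0.57 in Irf8 KO / b-cat(Ex3), 6.25 ± 0.39 in Irf8 KO and 6.02 ± 0.61 in control GMPs (SD, n = 4, 3 and 4). The level in Irf8 KO / b-cat(Ex3) exceeded that in Irf8 KO by 1.54 ± 0.35, a 2.92-fold difference, while Irf8 KO minus control was 0.22 ± 0.35. The last value is smaller than its standard error. It was -0.04 without control replicate 1, 0.45 without control replicate 4, and 0.07, 0.15 and 0.44 without Irf8 KO replicates 1, 2 and 3.

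Slfn5, a long member, followed the order of Slfn2. It had a level of 4.92, 5.51, 4.74 and 6.49 in the Irf8 KO / b-cat(Ex3) arrays, 4.13, 3.75 and 3.71 in the Irf8 KO arrays, and 2.88, 3.30, 3.04 and 4.38 in the control arrays. The Irf8 KO / b-cat(Ex3) arrays again lay above all others, and control replicate 4 lay above all 3 Irf8 KO arrays. The means were 5.42 ± 0.79 in Irf8 KO / b-cat(Ex3), 3.86 ± 0.23 in Irf8 KO and 3.40 ± 0.68 in control GMPs (SD, n = 4, 3 and 4). Here Irf8 KO / b-cat(Ex3) exceeded Irf8 KO by 1.55 ± 0.41, a 2.93-fold difference, and Irf8 KO minus control was 0.46 ± 0.41. Irf8 KO minus control was 0.29 without control replicate 1 and 0.79 without control replicate 4.

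Slfn8, the other long member, had a level of 6.94, 6.94, 6.37 and 7.62 in the Irf8 KO / b-cat(Ex3) arrays, 6.92, 5.84 and 6.70 in the Irf8 KO arrays, and 5.36, 5.28, 5.72 and 6.0 in the control arrays. All Irf8 KO / b-cat(Ex3) arrays lay above all controls, while Irf8 KO replicate 2 lay below the highest control. The means were 6.97 ± 0.51 in Irf8 KO / b-cat(Ex3), 6.49 ± 0.57 in Irf8 KO and 5.59 ± 0.33 in control GMPs (SD, n = 4, 3 and 4). Irf8 KO minus control was 0.90 ± 0.30, a 1.86-fold difference. The step between Irf8 KO / b-cat(Ex3) and Irf8 KO was 0.48 ± 0.30, and it was 0.16 without Irf8 KO replicate 2 and 0.27 without Irf8 KO / b-cat(Ex3) replicate 4.

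**Figure D1:**
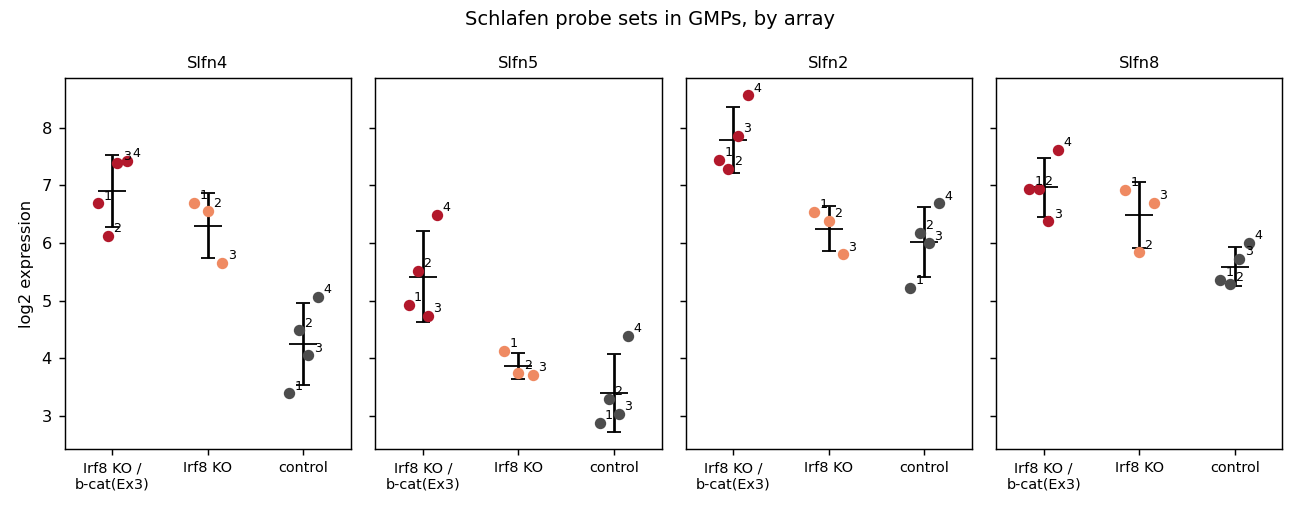
Log2 expression (vertical axis) of the Schlafen genes in each array, by group, with replicate numbers beside the points, the group mean as a bar and the SD as whiskers (n = 4 Irf8 KO / b-cat(Ex3), 3 Irf8 KO and 4 control). Slfn2 and Slfn5 stand above both other groups in Irf8 KO / b-cat(Ex3), and Slfn4 stands above control in both groups without Irf8.

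Against the background of the whole table, the 4 Schlafen genes all had Irf8 KO / b-cat(Ex3) arrays above every control array, as did 6.81% of all probe sets, a count that the choice of the members fixes. Irf8 KO arrays lay above every control array for 1 of the 4 (Slfn4), against 6.92% of all probe sets. Irf8 KO / b-cat(Ex3) arrays lay above every Irf8 KO array for 2 of the 4 (Slfn2 and Slfn5), against 3.67% of all probe sets. Without control replicate 4 the count for Irf8 KO over control became 3 of 4, Slfn2 being the exception, against 12.6% of all probe sets. Nothing is read from these counts about the members.

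In the limma fit over all probe sets, at a Benjamini-Hochberg adjusted p under 0.05, 3.41% of probe sets were higher and 2.72% lower in Irf8 KO / b-cat(Ex3) than in control GMPs. In Irf8 KO against control GMPs 0.81% were higher and 0.941% lower. Between Irf8 KO / b-cat(Ex3) and Irf8 KO GMPs 1 probe set was higher (0.00222%) and 1 lower, and 3182 probe sets had an unadjusted p under 0.05. These counts describe the whole table. Whether the 2 differences, Irf8 KO / b-cat(Ex3) minus Irf8 KO and Irf8 KO minus control, differ in size for any gene was not tested.

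**Figure D2:**
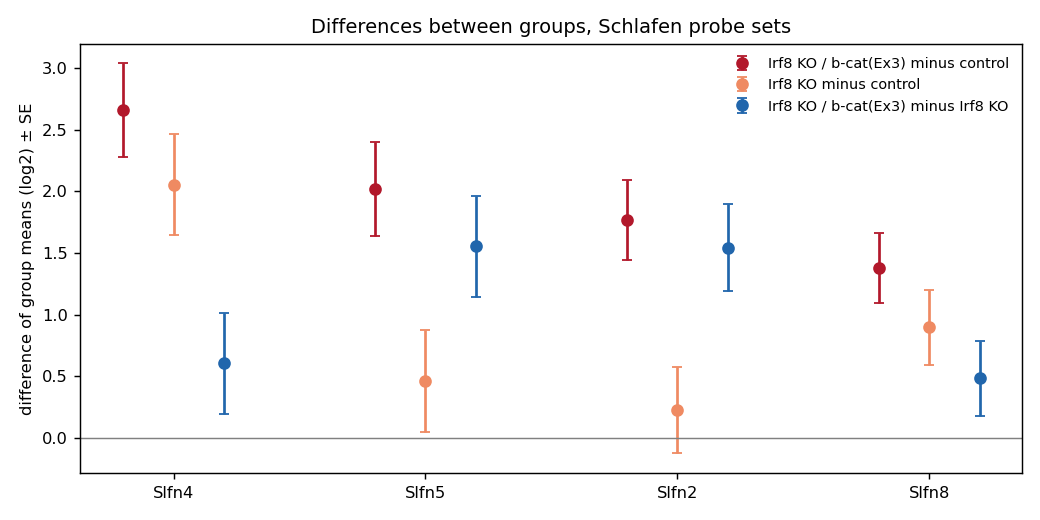
Differences of group means (log2, vertical axis) for each Schlafen gene with standard errors from limma, in 3 comparisons that share arrays. For Slfn4 the Irf8 KO minus control difference (2.05) is larger than the Irf8 KO / b-cat(Ex3) minus Irf8 KO difference (0.60), as for Slfn8 (0.90 and 0.48), and for Slfn2 (0.22 and 1.54) and Slfn5 (0.46 and 1.55) it is smaller.

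The part of the difference from control that Irf8 KO GMPs already showed can be set beside the same part for the other signature genes. It was 12.7% for Slfn2, 22.9% for Slfn5, 65.0% for Slfn8 and 77.3% for Slfn4. Among the 390 other positive signature genes, the median was 62.8% and the quartiles were 47.9% and 75.5%. Slfn2 lay above 5 of the 390 and Slfn5 above 18, whereas Slfn8 lay above 213 and Slfn4 above 301. Leaving out 1 array at a time gave -2.74% to 25.1% for Slfn2, 15.7% to 33.7% for Slfn5, 49.2% to 88.4% for Slfn8 and 69.9% to 89.5% for Slfn4. The value of Slfn8 moved most, from 49.2% without Irf8 KO replicate 1 to 88.4% without Irf8 KO replicate 2. That of Slfn2 was -2.74% without control replicate 1 and 22.4% without control replicate 4. It was 4.23% without Irf8 KO replicate 1 and 25.1% without Irf8 KO replicate 3. Both comparisons use the same control arrays, so these places describe the table and no more.

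**Figure D3:**
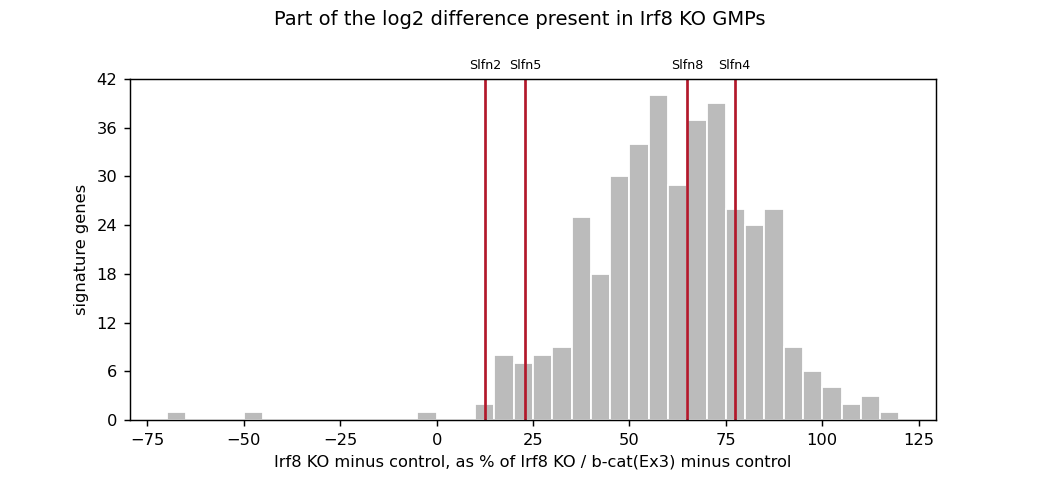
Irf8 KO minus control as a percentage of Irf8 KO / b-cat(Ex3) minus control (log2 differences, horizontal axis) for the 390 other positive signature genes (grey bars, number of genes), with the Schlafen genes as red lines. Slfn2 (12.7%) and Slfn5 (22.9%) lie at the low end, and Slfn8 (65.0%) and Slfn4 (77.3%) lie above the median of 62.8%.

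Schlafen genes belong to the interferon response, and the rest of that system was looked up in the signature by role. Of 18 interferon ligands and 7 inhibitors of the pathway, 0 were listed. Of 6 receptor genes, only Ifngr1, a chain of the interferon gamma receptor, was listed, at 0.92 in the authors' deposited table. Of 14 signal transducers only Irf8 was listed, and of 11 sensors of double-stranded RNA and their adaptors Ddx58 and Dhx58 were. Of 89 interferon-induced genes, 10 were listed, 8 positive and 2 negative, with a median of 1.71 (log2) in the authors' deposited table. The 4 Schlafen genes, all positive, had a median of 1.89 in the authors' deposited table. All 638 genes, of which 394 are positive and 244 negative, had a median of 0.68. The median of the 394 positive genes alone was not computed, so these medians are not compared like with like. All of these are counts of selected genes, so a gene that is missing is not shown to be unchanged.

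Irf8 itself had a level of 8.35, 8.63, 7.51 and 7.77 in the Irf8 KO / b-cat(Ex3) arrays, 8.60, 7.90 and 8.89 in the Irf8 KO arrays, and 9.38, 9.46, 9.78 and 9.23 in the control arrays. It was lower in every array without Irf8 than in every control, by 1.40 for Irf8 KO / b-cat(Ex3) and by 1.0 for Irf8 KO on the log2 scale, and its lowest level, 7.51, lay above the median level of every array (3.92 to 4.09). Whether this probe set lies in the deleted part of the gene is not known, so it does not check the labels.

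Among the interferon-induced genes, Oas3, which makes the second messenger of an antiviral RNA-degrading pathway, had the order of Slfn2. It stood at 6.73, 6.52, 6.77 and 8.02 in the Irf8 KO / b-cat(Ex3) arrays, 4.47, 4.06 and 4.55 in the Irf8 KO arrays, and 3.55, 3.88, 3.98 and 4.11 in the control arrays, and 15.3% of its difference from control was present in Irf8 KO. The RNA helicase-like sensor Dhx58 had 21.2%. Across the 9 positive interferon-induced genes and sensors (Oas3, Dhx58, Oas2, Oasl2, Ifit1, Xaf1, Gbp6, Parp12 and Ddx58) this part ran from 15.3% to 57.9%, and all 9 lay under the median of the 390 genes. Slfn5 lay inside that range, Slfn2 below it, and Slfn8 and Slfn4 above it. Ifi209, an interferon-inducible gene listed as Pyhin1, moved the other way, with means of 5.68 ± 0.71 in Irf8 KO / b-cat(Ex3), 6.29 ± 0.54 in Irf8 KO and 7.74 ± 0.12 in control GMPs (SD, n = 4, 3 and 4). Gbp3, the other negative gene of that list, had means of 6.73 ± 0.20, 6.77 ± 0.24 and 7.47 ± 0.13 in the same order (SD, same n). The part present in Irf8 KO was 70.4% for Ifi209 and 94.6% for Gbp3, above the range of the 9 positive genes.

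Array by array, Irf8 KO / b-cat(Ex3) replicate 4 had the highest level of its group for all 4 Schlafen genes. It also had the highest level of that group for Oas3, Ifit1 (8.05, against 5.26 to 6.23 in the other 3 arrays), Oasl2, Oas2, Gbp6, Xaf1, Parp12, Ddx58 and Dhx58. This was not limited to interferon-system genes. Of the positive neutrophil and monocyte or macrophage markers, it was highest for Cd177 (9.57), Wfdc21 (11.03) and Fcgr4 (6.84), and not for Csf3r, Cd14 or Adgre1. Without it, Irf8 KO / b-cat(Ex3) minus Irf8 KO was 1.29 for Slfn2, 1.20 for Slfn5, 0.43 for Slfn4 and 0.27 for Slfn8. All groups had the same poly(I:C) schedule, and a lasting response to it that differs between pools was not tested.

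**Figure D4:**
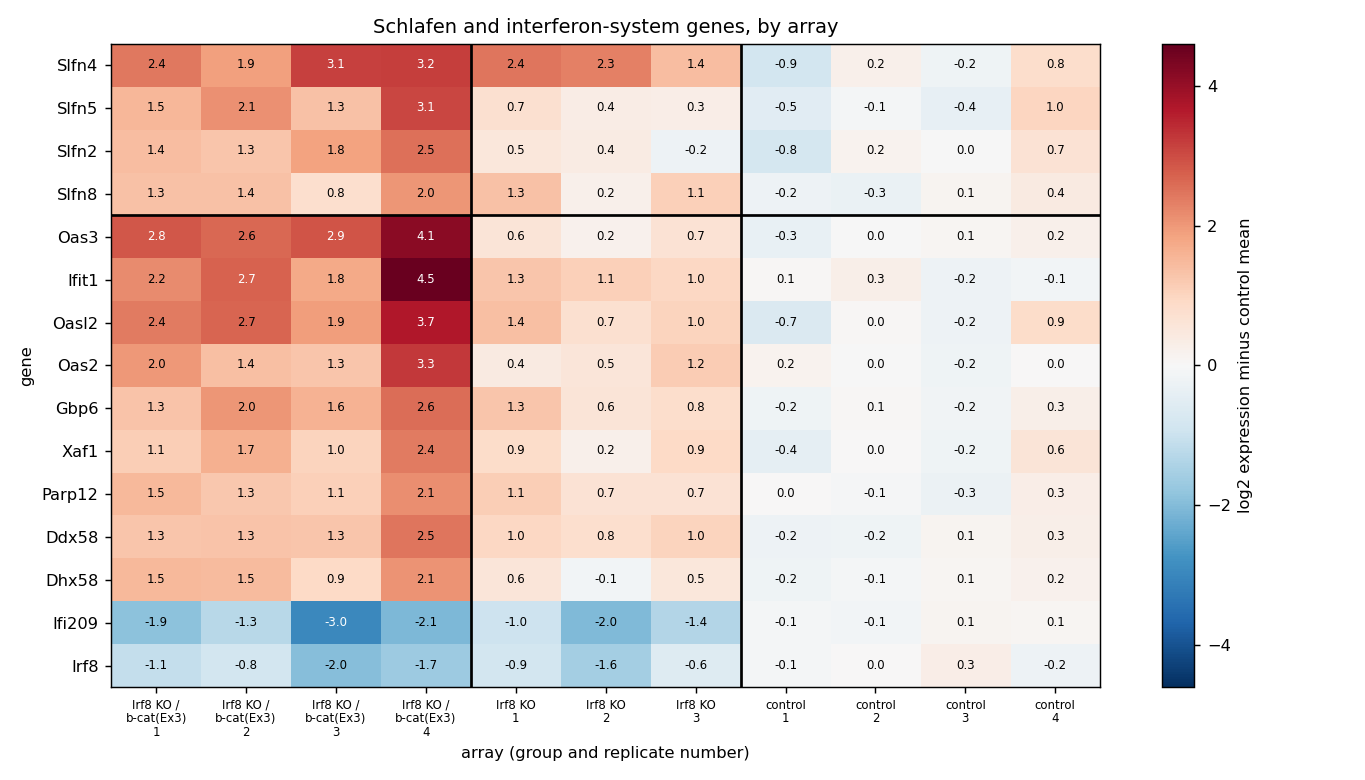
Log2 expression minus the control mean in each of 11 arrays (columns, by group and replicate number) for the Schlafen genes (upper rows) and for interferon-induced genes, sensors and Irf8 (lower rows), with red above and blue below the control mean. Irf8 KO / b-cat(Ex3) replicate 4 has the largest value of its group for every Schlafen gene. Gbp3 is not shown.

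Pairs of genes varied together within groups to different degrees. After each array was expressed as its distance from its own group mean, Slfn4 and Slfn2 had Pearson r = 0.93 over the 11 arrays, Slfn2 and Slfn5 0.74, and Slfn4 and Slfn5 0.52. Slfn8 had 0.73 with Slfn5, 0.41 with Slfn2 and 0.16 with Slfn4. These are descriptions over 11 arrays that share their pools' makeup and labelling, and the group means were removed before they were computed.

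By the fixed measure, Pearson r over the 11 arrays with the mean of the 4 centred Schlafen genes, the 6 most similar named genes were Slc16a3, Oasl2, Agpat2, Hsdl1, Pstpip2 and 1600014C10Rik, with r from 0.973 to 0.993. Slc16a3 encodes a lactate transporter, Oasl2 an interferon-induced oligoadenylate synthetase-like protein, Agpat2 an enzyme that makes phosphatidic acid, and Pstpip2 an adaptor protein of myeloid cells. No other of 45033 probe sets had a higher r than that of Slc16a3. Slc16a3 averaged 6.38 ± 0.39 in Irf8 KO / b-cat(Ex3), 5.66 ± 0.20 in Irf8 KO and 5.14 ± 0.30 in control GMPs (SD, n = 4, 3 and 4). From 0 to 5 of the 45033 probe sets had a higher r than each of these 6 genes, so they were also the 6 highest of all probe sets. As signature genes they were chosen on the same contrast as the Schlafen genes.

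Markers of other cell types were looked up in the signature as well. How many of each list the arrays measure is not known, and the share of all genes that are listed was not computed. The counts are therefore not read as many or few. Of 20 neutrophil markers 3 were listed, all positive (Cd177, Wfdc21 and Csf3r), and of 20 monocyte and macrophage markers 4 were listed, 3 positive (Cd14, Fcgr4 and Adgre1) and 1 negative (Klf4), beside 394 positive rows among all 638. The neutrophil surface protein Cd177 had a level of 7.55, 7.35, 8.76 and 9.57 in the Irf8 KO / b-cat(Ex3) arrays, 7.54, 6.75 and 6.32 in the Irf8 KO arrays, and 3.76, 4.17, 3.73 and 6.82 in the control arrays. Control replicate 4, the control with the highest level for all 4 Schlafen genes, was thus also the highest control for Cd177, and for the neutrophil gene Wfdc21 at 9.22, against 6.66 to 8.54 in the other controls. For Csf3r it was not the highest, at 6.72 against 6.90 in control replicate 2. Among the interferon-induced genes and sensors it was the highest control for Oas3, Oasl2, Gbp6, Xaf1, Parp12, Ddx58 and Dhx58, and not for Ifit1 or Oas2. Listed markers of erythroid and megakaryocyte (2 of 22), lymphoid (1 of 22) and eosinophil, basophil and mast cells (2 of 17), dendritic cells (1 of 16), stem cell genes (5 of 16) and cell cycle genes (1 of 30) were all negative. The part of cell makeup in the Schlafen differences was not tested, and in sorted bulk cells more cells of a type and more RNA per cell cannot be told apart. Only Csf3r of 15 GMP markers was listed, at 0.73 in the authors' deposited table, so the labelled cell type was not checked here.

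Control replicate 4 and Irf8 KO / b-cat(Ex3) replicate 2 stood somewhat apart from their groups over all probe sets. Their median absolute distance from the mean of the other arrays of their group was 0.20 for Irf8 KO / b-cat(Ex3) replicate 2, against 0.15 to 0.18 for the other 3 arrays, and 0.18 for control replicate 4, against 0.12 to 0.14 for the other 3 controls. Without control replicate 4, Irf8 KO / b-cat(Ex3) minus control was 2.93 for Slfn4, 2.34 for Slfn5 and 1.99 for Slfn2, larger in each case than with it.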

How the data were processed

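Log2 expression values of 45037 probe sets on 11 arrays were used as deposited. How the authors corrected, summarised and normalized the arrays was not given in the sources used here. Per the labels' protocols, cDNA was amplified from small amounts of total RNA with a whole-transcriptome kit. The authors' deposited table gives for each gene, per the file headers, a log2 fold change, a signed linear fold (2 to that power) and a p-value, its test and adjustment not given in the sources used here. No table that pairs probe sets with genes was used, so signature rows were tied to probe sets by equality of the deposited linear fold, within a relative difference of 1e-07, with the fold between group means.

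Groups were fitted together with limma 3.58.1 in R 4.3.3 on all probe sets, with no replicate block, Benjamini-Hochberg adjustment and a threshold of 0.05. The fit was tested on simulated data. Calls set a difference of group means against the spread between pools, and the number of arrays limits the precision. Of the signature's Entrez identifiers, 621 of 638 matched RefSeq (GRCm38.p6), whose symbols were used.

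Named were, by rule, all Schlafen genes, interferon-system genes and cell markers of fixed lists, and the 6 genes most like the Schlafen mean. The members and lists were chosen with earlier results of these data known. The motifs were chosen from textbook knowledge after the data were seen. Differences of members are given with standard errors and without tests, since all 3 comparisons may have entered their selection. Alternatives were array weights, median centring, quantile normalization, an intensity trend, a filter on dim probe sets, the replicate block, fits on the compared groups alone and leaving out each array. The list tests and the interferon genes outside the signature could not be run, because probe sets have no gene names here.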

Additional observations from a re-analysis of the deposited data

Results flagged for a closer look

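Among 44 groups of 4 arrays examined for the Schlafen genes, the similar genes and the interferon-system genes, 2 had a highest array far from the others. Such a gap arises by chance in about 1 in 20 groups. Both were Irf8 KO / b-cat(Ex3) replicate 4. The RNA sensor Ddx58 had 7.44 there, with the next highest array of the group at 6.28. The synthetase Oas3 had 8.02 there, with the next at 6.77.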

How the results depend on the processing

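Some alternatives, such as the filter on dim probe sets, cannot change a difference of means. The 132 recomputed differences of the 4 Schlafen genes that an alternative did change (44 in each comparison) stayed within 1 SD between arrays of their reported values. All 4 genes also passed a 2-fold minimum, which the deposited fold changes given above fix and which is no separate check. Leaving control replicate 4 out of the overlap count, chosen after seeing the data, gave 3 Schlafen genes with Irf8 KO above control in place of 1. The share over all probe sets rose as well, from 6.92% to 12.6%, so nothing is read from this move about the members. Counts over all probe sets moved more. Irf8 KO / b-cat(Ex3) against control gave 2761 calls (1535 higher, 1226 lower), 4395 with array weights and 1477 to 3673 leaving out 1 array, where control replicates 1, 2 and 3 gave 1477, 1609 and 1608. Centring each array on its median changed its split to 1850 higher and 882 lower. Irf8 KO against control gave 789 calls, 1658 with array weights and 347 to 1039 leaving out 1 array, lowest without Irf8 KO replicate 1, with 444 without Irf8 KO replicate 2 and 423, 441 and 477 without control replicates 1, 2 and 3. Irf8 KO / b-cat(Ex3) against Irf8 KO gave 2 calls, and 1 to 10 leaving out 1 array, highest without Irf8 KO / b-cat(Ex3) replicate 2. In limma on the 2 compared groups alone, where fewer arrays estimate the spread, the 3 comparisons gave 2192, 947 and 0 calls in that order. For the last of them 2623 probe sets had an unadjusted p under 0.05. The cause of these moves was not tested. With the replicate number as a block the part of the difference present in Irf8 KO was 26.2% for Slfn2 and 39.9% for Slfn5, and the counts were 2443, 658 and 2 in that order. Replicate numbers carry no stated pairing: same-numbered arrays had correlations of their deviations from group means from -0.23 to 0.17 over 10 pairs, and 1 of 11 arrays correlated best with its own number. Averaging all probe sets of a gene was not run, since they have no names here.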

Other observations

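The monocyte transcription factor Klf4 had the reverse order to Slfn4, with means of 4.12 ± 0.70 in Irf8 KO / b-cat(Ex3), 4.58 ± 0.99 in Irf8 KO and 7.59 ± 0.31 in control GMPs (SD, n = 4, 3 and 4). The stem cell gene Cd27 was instead closer to control in Irf8 KO, with means of 5.80 ± 0.79 in Irf8 KO / b-cat(Ex3), 7.46 ± 0.64 in Irf8 KO and 7.79 ± 0.17 in control GMPs (SD, n = 4, 3 and 4).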
